A study of Caenorhabditis elegans with 6 samples.

Results

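The nlp-29 and caenacin (cnc) genes of Caenorhabditis elegans encode short secreted peptides of the epidermis. The group described here holds 10 genes, nlp-27, nlp-28, nlp-29, nlp-30, nlp-31, nlp-34, cnc-1, cnc-2, cnc-4 and cnc-6. They were chosen by name from the 45836 gene rows of the count table, with earlier results of these data known. All 10 have a row, and 9 had enough counts to be tested. Transcripts were counted in whole larvae at L1, the first larval stage, in 3 libraries of a div-1 mutant and 3 of a wild type. The mutant is strain BCN6101, which is EU548, carrying div-1(or148), with a pdaf-21::mCherry reporter, and the wild type is BCN1050, an N2 background with the same kind of reporter. Both strains thus carry the reporter. In both, eggs freed by bleaching hatched overnight in M9 buffer at 20 °C and RNA was taken from the larvae.

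As background, the worm epidermis answers fungal infection and wounding by making these peptides. The nlp genes of this cluster act downstream of a p38 MAP kinase cascade, in which the adaptor TIR-1 and the kinases NSY-1, SEK-1 and PMK-1 lead to the STAT-like factor STA-2. The caenacin cnc-2 is known instead as a target of the TGF-beta ligand DBL-1. Loss of the furrow collagens, which form the circumferential rings of the cuticle, or osmotic stress also turns nlp-29 on without infection.

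Each library held from 25051167 to 27632878 counts over all features of the table. Levels are given as CPM, counts per 1000000 counts of the genes with enough counts to be tested, after TMM scaling of library sizes. div-1, a gene of the primase complex that starts DNA replication, had 35.1 ± 8.45 CPM (SD, n = 3) in mutant larvae against 32.7 ± 9.59 in wild-type larvae, and the counts do not show the allele itself. mut-16, a scaffold protein of the small RNA pathway, had 6.52 ± 1.84 CPM in mutant larvae against 51.9 ± 1.46 in wild-type larvae, so the div-1 allele and the low mut-16 level cannot be told apart in any comparison of the groups. Mutant library 1 and wild-type library 3 stood apart from the other libraries of their groups, and not in epidermal transcripts alone. Over all tested genes, the deviations of these 2 libraries from their group means had a correlation of 0.62. The 6 furrow collagens together held 611, 302 and 317 CPM in mutant libraries 1, 2 and 3, and 467, 403 and 951 CPM in wild-type libraries 1, 2 and 3. Results that rest on this pair of libraries are therefore given with and without them.

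Among the 9 tested members, nlp-34, cnc-6, nlp-27 and cnc-2 rose in the mutant, none fell and 5 missed the threshold (edgeR quasi-likelihood test, two-sided, Benjamini-Hochberg adjusted p under 0.05 over 16289 genes). These 4 compare with 0.884% of all tested genes that rose by the same rule. cnc-2 could enter the test only through the mutant libraries, where it is high, and without it 3 members rose. The log2 fold changes of these 9 were all above 0, and their median was 1.22 against -0.03 for all tested genes. By DESeq2, 7 of the 9 rose, against 3.32% of all genes. In 7 of the 9, every mutant library lay above every wild-type library, as was so for 10.2% of all tested genes. cnc-2 is also counted in the signs, the median, the 7 by DESeq2 and the 7 without overlap. The filter favoured a higher mutant level for it in each. In whole larvae, fewer or more cells of a type and less or more RNA per cell cannot be told apart.

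nlp-34, which lies at one end of the nlp cluster, differed most evenly between the groups. Its level was 31.7, 29.2 and 28.8 CPM in mutant libraries 1, 2 and 3 and 9.22, 9.47 and 10.4 CPM in the wild-type libraries. The 3 mutant libraries lay close together and far above the wild type, with no overlap. The rise was 3.08-fold, with a 95% interval of 2.48 to 3.81 (log2 fold change 1.62, SE 0.13, edgeR adjusted p = 0.00273). nlp-34 passed the test in all 6 fits that left out 1 library.

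nlp-27, at the other end of the cluster, held 37.0, 54.7 and 51.7 CPM in the mutant libraries and 18.1, 24.7 and 18.9 CPM in the wild-type libraries. The groups did not overlap, and mutant library 1 was the lowest of its group. The rise was 2.32-fold, with an interval of 1.69 to 3.19 (log2 fold change 1.22, SE 0.20, edgeR adjusted p = 0.0395). The call held in 1 of the 6 fits that left out a library, the one without mutant library 1, and was lost in the other 5, with adjusted p between 0.0802 and 0.186.

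nlp-29, the gene most used as a reporter of epidermal immunity, had the most counts of the group. It held 115, 134 and 114 CPM in the mutant libraries and 50.9, 74.5 and 74.2 CPM in the wild-type libraries. The mutant libraries were all above the wild type, yet the gene did not pass the threshold (log2 fold change 0.86, SE 0.18, 95% interval 0.45 to 1.28, edgeR adjusted p = 0.0826). It passed in 2 alternatives, with no expression filter (adjusted p = 0.0378) and by DESeq2 (adjusted p = 0.00217).

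nlp-31 held 72.1, 48.2 and 45.8 CPM in the mutant libraries and 25.2, 25.04 and 34.8 CPM in the wild-type libraries. There was again no overlap, with mutant library 1 and wild-type library 3 the highest of their groups (log2 fold change 0.97, SE 0.22, edgeR adjusted p = 0.109). nlp-30 showed the same order more strongly. It held 32.7, 15.3 and 16.2 CPM in the mutant libraries and 7.34, 8.93 and 16.3 CPM in the wild-type libraries. Wild-type library 3 reached the level of mutant libraries 2 and 3, so the groups overlapped (log2 fold change 0.98, SE 0.39, edgeR adjusted p = 0.417).

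nlp-28 had the smallest fold change of the tested members and, like nlp-30, overlapped between the groups. Its level was 24.7, 53.6 and 45.1 CPM in the mutant libraries and 25.6, 53.7 and 34.03 CPM in the wild-type libraries. Mutant and wild-type libraries covered nearly the same range, and the log2 fold change of 0.12 had a 95% interval of -0.67 to 0.91 (edgeR adjusted p = 0.925). That interval holds rises of the size seen for nlp-29, so nlp-28 is not shown to have stayed level. Its sign turned to -0.12 without mutant library 2 and to -0.10 without wild-type library 1.

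nlp-27 and nlp-28 lie side by side, and their ratio is given as a description. The ratio of nlp-27 to nlp-28 counts was 1.497, 1.02 and 1.14 in the mutant libraries and 0.706, 0.460 and 0.555 in the wild-type libraries. It was higher in every mutant library, by 2.13-fold on average (two-sided exact permutation p = 0.1 over 20 assignments, the smallest that 3 against 3 libraries allow, so the test cannot reach 0.05). This ratio needs no scaling of library sizes, and it was chosen after the values were seen, with 2 further ratios given below and an adjusted p of 0.1 over the 3.

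**Figure D1:**
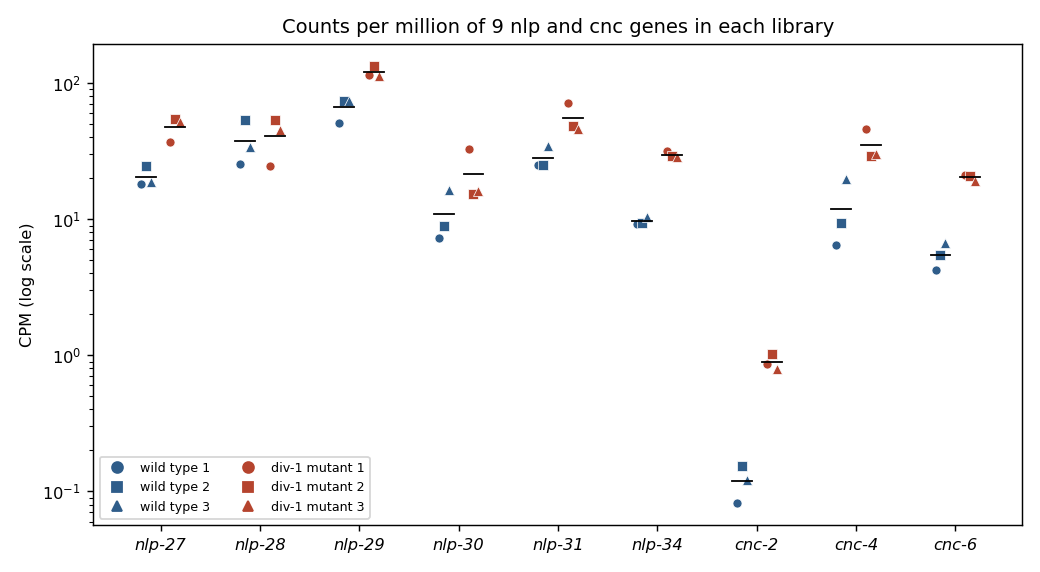
CPM (log axis) of the 9 tested genes in each library, wild type in blue and div-1 mutant in red, with symbols for replicates 1 to 3 and black bars for group means. The mutant libraries lie above all wild-type libraries for every gene shown except nlp-28 and nlp-30, and cnc-1, with a count of 0 in 1 library, is not drawn.

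Among the caenacins, cnc-6 was the most evenly raised. It held 21.3, 20.9 and 19.1 CPM in the mutant libraries and 4.22, 5.46 and 6.69 CPM in the wild-type libraries. The groups were far apart, and the rise was 3.74-fold, with a 95% interval of 2.72 to 5.12 (log2 fold change 1.90, SE 0.20, edgeR adjusted p = 0.00636). Like nlp-34, cnc-6 passed in all 6 fits that left out a library and in all 17 alternatives tried.

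cnc-4 held 46.2, 29.2 and 30.2 CPM in the mutant libraries and 6.52, 9.43 and 19.8 CPM in the wild-type libraries. Mutant library 1 and wild-type library 3 were again the highest of their groups, and the groups did not overlap. The log2 fold change of 1.57 had an SE of 0.40 and a 95% interval of 0.65 to 2.48, and it did not pass the threshold (edgeR adjusted p = 0.153). It passed without wild-type library 3 (edgeR adjusted p = 0.0305), but leaving out the highest wild-type library favours a call, so this is no independent support. Without mutant library 1 the log2 fold change was 1.32 (edgeR adjusted p = 0.292).

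cnc-2, the caenacin tied to DBL-1, was scarce. Its counts were 24, 25 and 21 in the mutant libraries and 2, 4 and 3 in the wild-type libraries. The group totals of 70 and 9 counts did not overlap library by library, and the fitted log2 fold change was 2.85 (SE 0.39, 95% interval 1.96 to 3.75, edgeR adjusted p = 0.0204). No wild-type library reached 10 counts, so cnc-2 entered the test through its mutant libraries alone. The call held in 1 of the 6 fits that left out a library, without mutant library 1, and was lost in the other 5, with adjusted p between 0.0646 and 0.111.

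For cnc-1, the mutant libraries held 9 counts in total and the wild-type libraries 3. It did not pass the filter on low counts and was not tested. The ratio of its levels was 2.87, with a 95% interval for counting error alone of 0.717 to 16.5 (Clopper-Pearson), which includes no difference.

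The members differed widely in level. Per length of annotated exons, the mean level in the mutant ran from 342 ± 32.1 CPM per kb (SD, n = 3) for nlp-29 to 0.620 ± 0.375 for cnc-1. In the mutant, nlp-29 stood clear of the next gene, nlp-27, at 151 ± 29.97 CPM per kb. The levels of nlp-27, nlp-28, nlp-31 and nlp-34 followed, each overlapping the next over the libraries, then cnc-4 at 80.95 ± 21.96, cnc-6, nlp-30, cnc-2 and cnc-1. In the wild type, nlp-29 was again first at 188 ± 38.2 CPM per kb, but it overlapped nlp-28 at 113 ± 42.97, which came next there. cnc-6 and nlp-30 changed places between the groups, with 44.2 ± 2.47 and 30.01 ± 13.7 CPM per kb in mutant larvae against 11.8 ± 2.67 and 15.2 ± 6.72 in wild-type larvae, and overlapped in both. The place of nlp-30 depends on the length used, since its annotated exons span 714 bases for a coding length of 207. Per kb of coding length nlp-30 stood above cnc-6 also in the mutant, at 104 ± 47.4 against 69.4 ± 3.88 CPM per kb.

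Short fragments can be assigned to the wrong member where paralogs share sequence, so sums over members were examined too, though how much sequence the members share was not tested. The 6 nlp members together held 314, 335 and 302 CPM in the mutant libraries and 136, 196 and 189 CPM in the wild-type libraries, a ratio of means of 1.82. The 4 cnc members together held 68.4, 51.3 and 50.2 CPM in the mutant libraries and 10.9, 15.04 and 26.7 CPM in the wild-type libraries, a ratio of means of 3.23. Both sums were higher in every mutant library. Within the nlp sum, nlp-29 made up between 36.8% and 40.1% in all 6 libraries, a nearly fixed share. The share of nlp-34 was 8.70% to 10.1% in mutant libraries against 4.82% to 6.76% in wild-type libraries. The share of nlp-28 was 7.87% to 15.99% against 18.04% to 27.3%, and neither share overlapped between the groups.

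The members fell into different patterns within the groups. nlp-30 was 2.08 times as high in mutant library 1 as in the mean of mutant libraries 2 and 3, and 2.01 times as high in wild-type library 3 as in the mean of wild-type libraries 1 and 2. The same pair of ratios was 1.56 and 2.48 for cnc-4 and 1.53 and 1.38 for nlp-31. The furrow collagens showed this order as well, with both ratios above 1 for all 6 and medians of 1.75 and 2.20. nlp-34 had ratios of 1.096 and 1.12, near 1. nlp-28 and nlp-27 went the other way, with 0.4999 and 0.858 for the first and 0.695 and 0.882 for the second. Of all tested genes, 39.0% had both ratios above 1. Among 9 epidermis markers, 8 had both ratios above 1, and dpy-7 is both a marker and a furrow collagen. The summed level of the 9 ran from 1410 to 2400 CPM over mutant libraries and from 1638 to 3648 CPM over wild-type libraries. Most of each sum was the cuticle collagen sqt-3, at 1710, 937 and 962 CPM in the mutant libraries and 1363, 1091 and 2884 CPM in the wild-type libraries.

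**Figure D2:**
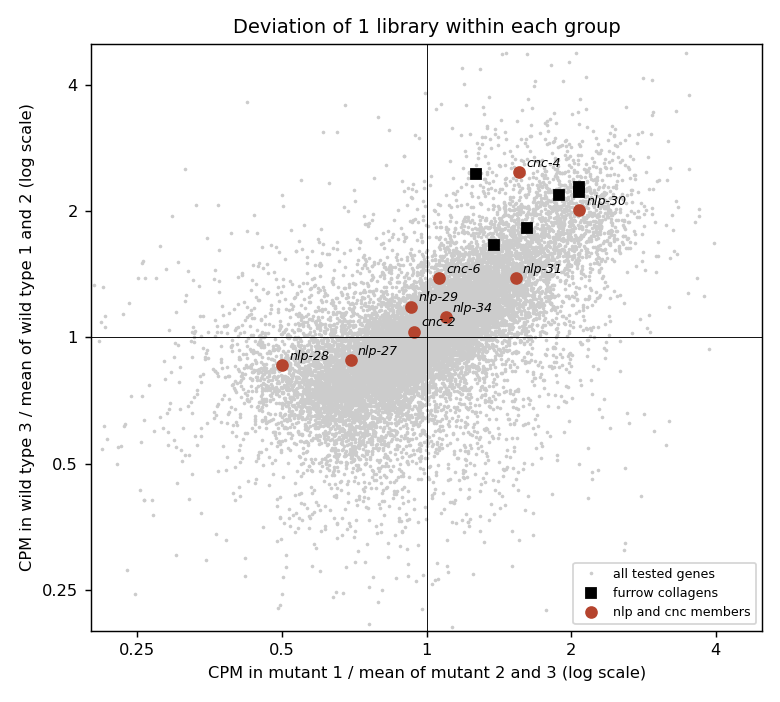
Each gene's CPM in mutant library 1 over the mean of mutant libraries 2 and 3 (x, log axis) and in wild-type library 3 over the mean of wild-type libraries 1 and 2 (y, log axis), for all tested genes (grey), the 9 tested members (red) and the 6 furrow collagens (black squares). nlp-30 and cnc-4 lie with the furrow collagens at the upper right and nlp-28 and nlp-27 at the lower left, while 61 genes lie outside the axes.

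Without mutant library 1 and wild-type library 3, 6 of the 9 tested members rose, against 1.43% of all genes tested in that fit. The libraries left out were the highest of their groups for nlp-30, nlp-31 and cnc-4, and also for nlp-34 and cnc-6. A smaller spread of nlp-30, nlp-31 and cnc-4 follows from the choice. The calls of all these genes in this fit are no independent support. cnc-4 then reached 1.90 on the log2 scale (SE 0.19, edgeR adjusted p = 0.00542). nlp-31 reached 0.90 (SE 0.12, adjusted p = 0.0124) and nlp-30 reached 0.95 (SE 0.17, adjusted p = 0.0409). nlp-34, cnc-6 and nlp-27 passed here too, with log2 fold changes of 1.63, 2.04 and 1.31. cnc-2 lost its call (adjusted p = 0.0538), and neither nlp-29 nor nlp-28 passed (adjusted p = 0.0816 and 0.770). This fit rests on 2 libraries in each group and was added after the values were seen.

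**Figure D3:**
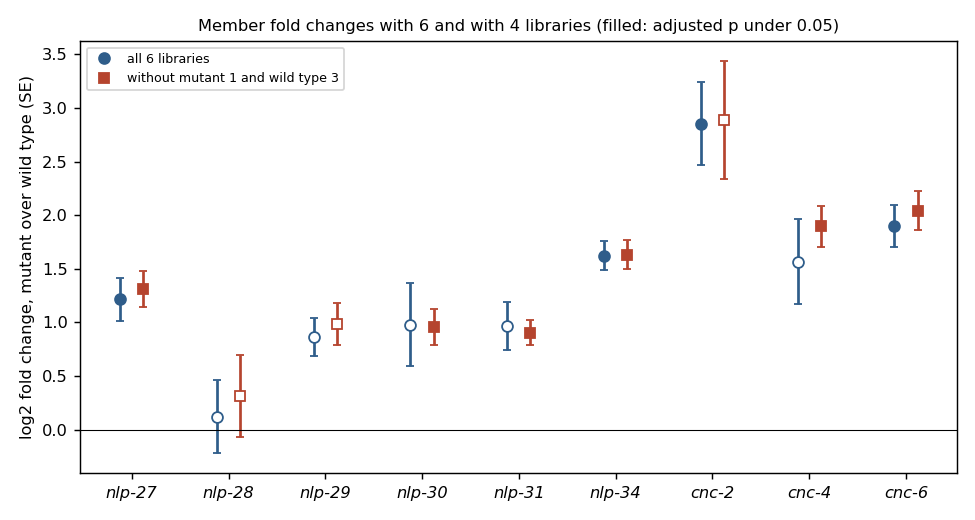
Log2 fold change of the 9 tested members (div-1 mutant over wild type) with all 6 libraries (blue circles) and without mutant library 1 and wild-type library 3 (red squares). Bars are standard errors and filled symbols have an edgeR adjusted p under 0.05. The estimates stay close together while the bars of nlp-30, nlp-31 and cnc-4 become shorter.

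Of 54 related peptide genes 29 were tested. Among them 2 rose and none fell, which is 6.90% against 0.884% of all tested genes. The log2 fold change was above 0 in 22 of the 29, against 7494 of all 16289 tested genes, with a median of 0.53. The count called depends on the processing and reached 8 by DESeq2, against 3.32% of all genes called higher. The difference from the members was not tested. One of these was cnc-11, a caenacin next to cnc-1, which rose 4.09-fold, with 18.2 ± 2.92 CPM in mutant larvae against 4.45 ± 1.16 in wild-type larvae (log2 fold change 2.03, SE 0.24, edgeR adjusted p = 0.0115). The other was fipr-22, of the fungus-induced protein family, with 6.995 ± 0.764 CPM against 1.76 ± 0.433 (log2 fold change 1.99, SE 0.25, edgeR adjusted p = 0.0136). cnc-11 lost its call without mutant library 3 (adjusted p = 0.0612). fipr-22 passed in 2 of the 6 fits that left out a library.

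The 5 other nlp genes of the YGGW type, named for a motif of their peptides, were all positive without passing the threshold. nlp-33 had a log2 fold change of 0.97 and nlp-24 of 0.86, with no overlap between the groups (edgeR adjusted p = 0.0748 and 0.139), and nlp-26 had the smallest, 0.53. nlp-24 overlaps glb-15, a gene on the opposite strand, and whether counting used strand is not given in the sources used here. Among the 5 other caenacins tested, cnc-3 had a log2 fold change of 0.03, with an interval of -0.52 to 0.57. Antibacterial factor genes, which encode defensin-like peptides, had 3 tested members between -0.14 for abf-6 and 0.97 for abf-2, none past the threshold (smallest edgeR adjusted p = 0.467).

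Among 16 tested fungus-induced protein genes, 10 were positive. The span ran from -0.97 for fipr-7 to 2.03 for fipr-13 (edgeR adjusted p = 0.691 and 0.0592). fip-6 followed the order of nlp-30, high in mutant library 1 and wild-type library 3, with 24.6 ± 11.5 CPM in mutant larvae against 10.2 ± 7.02 in wild-type larvae (log2 fold change 1.27, SE 0.50, edgeR adjusted p = 0.417). It was named after its values were seen. Without mutant library 1 and wild-type library 3, 6 related genes rose, against 1.43% of all genes tested in that fit: nlp-24, nlp-33, cnc-11, fip-6, fipr-22 and fipr-26. The libraries left out were the highest of their groups for nlp-24, nlp-33, fip-6 and fipr-26. A smaller spread of these genes thus follows from the choice, and their calls here are no independent support.

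**Figure D4:**
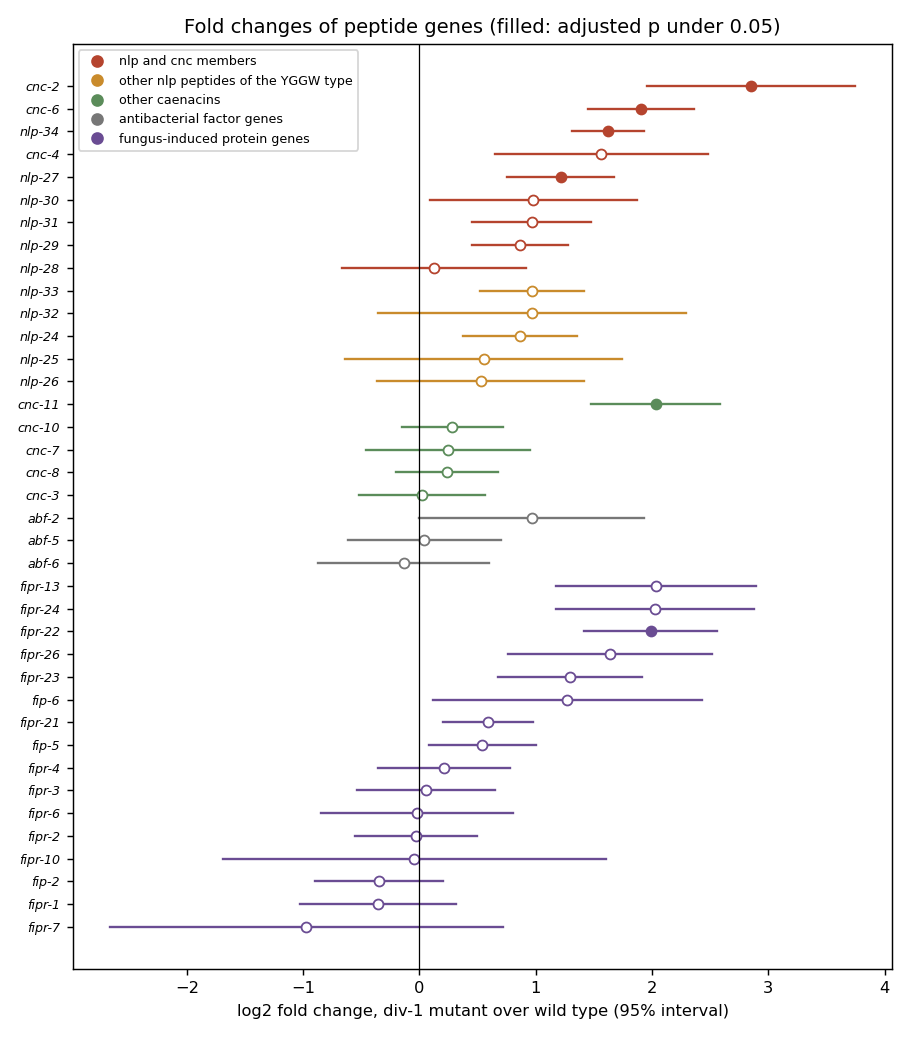
Log2 fold change (div-1 mutant over wild type) with its 95% interval for the 9 tested members and 29 tested related peptide genes, coloured by family. Filled points have an edgeR adjusted p under 0.05: nlp-27, nlp-34, cnc-2 and cnc-6 among the members, with cnc-11 and fipr-22 among the related genes.

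The cnc cluster on chromosome V held genes that rose beside one with no clear difference. The order is cnc-11, cnc-1, cnc-5, cnc-4, cnc-3 and cnc-2, with cnc-1 and cnc-2 on one strand and the rest on the other. cnc-3, between cnc-4 and cnc-2, held 6.14 ± 1.54 CPM in mutant larvae against 6.04 ± 0.677 in wild-type larvae. The ratio of cnc-4 to cnc-3 counts was 6.30, 4.38 and 6.85 in the mutant libraries and 0.958, 1.70 and 3.43 in the wild-type libraries, 3.23-fold higher in the mutant. That of cnc-11 to cnc-3 was 2.21, 3.23 and 3.84 against 0.458, 0.945 and 0.867, 4.18-fold higher. For both ratios the groups did not overlap (two-sided exact permutation p = 0.1, the smallest possible).

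Apart from cnc-11, no gene around the clusters passed the edgeR threshold. Protein-coding neighbours were taken as the 5 nearest on each side of a cluster, and 29 of them are neither nlp nor cnc genes. Of the 19 that were tested, none rose or fell, 11 were positive and the median log2 fold change was 0.14. At an unadjusted edgeR p under 0.05, 1 lay higher and 1 lower, against 1346 higher and 398 lower of all 16289 tested genes. With 0.884% of all tested genes called higher, a count of 0 among 19 is near the background and sets the neighbours apart from nothing. By DESeq2, 1 of them passed, clp-4 (log2 fold change 0.64, adjusted p = 0.0368), a calpain-like protease gene near cnc-6. The nlp genes lie in the order nlp-34, nlp-31, nlp-30, nlp-29, nlp-28 and nlp-27 with no other protein-coding gene of the table among them. The nearest neighbours on either side, the chemoreceptor gene str-83 and K09D9.9, had too few counts to be tested (1 and 7 in all mutant libraries, 2 and 15 in all wild-type libraries). Beyond str-83 and str-82, which was not tested either, the cytochrome P450 genes cyp-34A8, cyp-34A9 and cyp-34A10 had log2 fold changes of 0.17, 0.28 and -0.33. Beside the cnc cluster, the chemoreceptor gene srj-23 had 0.93 (edgeR adjusted p = 0.562). hacd-1, named after its value was seen, had -3.04, with 1773 counts in wild-type library 1 and 82 and 73 in the other wild-type libraries (edgeR adjusted p = 0.4104). cnc-6 lies alone on chromosome III, where the neighbour tbx-43, a T-box factor gene, had 0.13 (edgeR adjusted p = 0.951).

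**Figure D5:**
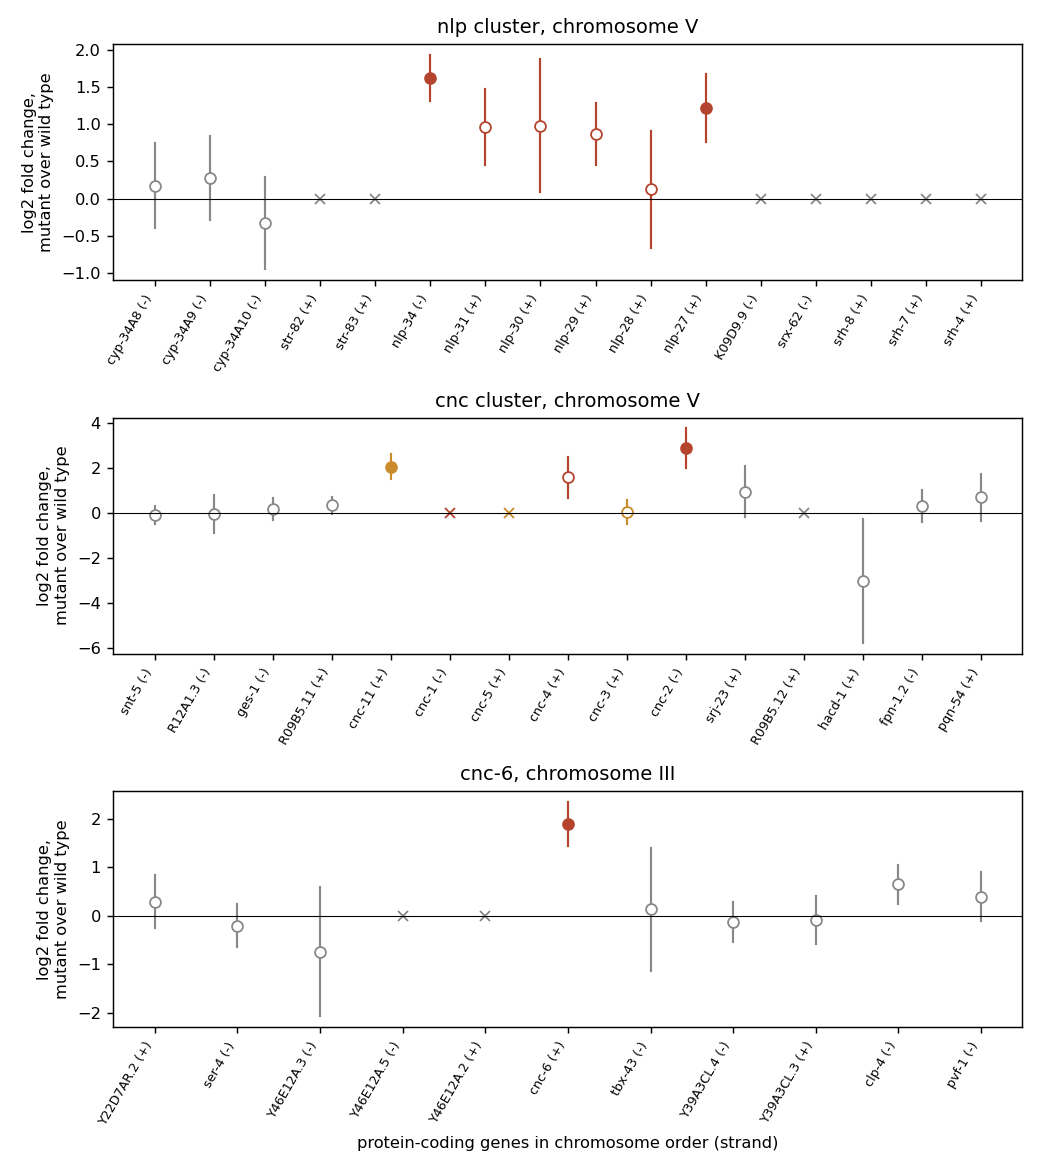
Log2 fold change (div-1 mutant over wild type) with 95% intervals for the protein-coding genes of 3 chromosome regions, in chromosome order with their strand. Members are red, other nlp and cnc genes orange and the rest grey. Filled points have an edgeR adjusted p under 0.05 and crosses at 0 mark genes with too few counts to be tested. The filled points are nlp-34, nlp-27, cnc-11, cnc-2 and cnc-6.

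Genes of pathways and responses linked to these peptides were examined as well, and not all of them are signalling genes. None of 40 tested genes of the p38 cascade, the DBL-1 pathway and the furrow collagen and osmotic response lists passed the threshold of edgeR, 19 were positive and the median log2 fold change was -0.02. Without adjustment, 3 genes had an edgeR p under 0.05, all higher and all in the p38 cascade. At that level 1346 of all 16289 tested genes lay higher and 398 lower, so this count is near the background too. By DESeq2, 1 of the 40 passed. The counts called by edgeR and by DESeq2 are near the background of 0.884% and 3.32% of all tested genes called higher by these tools. They are thus no result about these genes.

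In the p38 cascade, the median over 17 genes was -0.04. tir-1, the adaptor at its head, had the largest log2 fold change, 0.68, at 297 ± 92.3 CPM against 186 ± 30.4 (edgeR adjusted p = 0.3498). vhp-1, a phosphatase that switches MAP kinases off, had 0.67, at 345 ± 41.8 CPM against 216 ± 8.90, with no overlap between the groups (edgeR adjusted p = 0.0922 and, by DESeq2, adjusted p = 0.00155). nipi-3, a Tribbles-like pseudokinase needed for the infection response, had 0.44 (edgeR adjusted p = 0.319). rack-1 had the lowest value, -0.25, and the receptor gene dcar-1 had -0.08. vhp-1, nipi-3 and dcar-1 were named after their values were seen.

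In the DBL-1 pathway, the ligand gene dbl-1 had 28.3 ± 5.41 CPM in mutant larvae against 29.3 ± 4.26 in wild-type larvae. The log2 fold changes of the 10 genes ran from -0.27 for sma-6, the type I receptor, to 0.30 for lon-2, a glypican that restrains the pathway, and none passed the threshold (smallest edgeR adjusted p = 0.489). Of the 13 furrow collagen and osmotic response genes, 8 were negative. dpy-2 had a log2 fold change of -0.65 and dpy-8 of 0.32 (edgeR adjusted p = 0.605 and 0.787).

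No marker of epidermis, intestine, muscle, neurons or germ cells passed the edgeR threshold, and 1 of them, unc-89, had an unadjusted p under 0.05. At that level 1346 of all 16289 tested genes lay higher and 398 lower. The part of tissue make-up in the members' differences was not tested. Of 9 tested epidermis markers, 8 had a negative log2 fold change, with a median of -0.11 and a span from -0.56 for the cuticle collagen sqt-3 to 0.11 for nhr-23. Medians were 0.07 for 6 intestine markers, from -0.22 for elt-2 to 0.33 for act-5, and -0.03 for 5 muscle markers, from -0.21 for hlh-1 to 0.54 for unc-89. They were -0.05 for 4 neuron markers, from -0.12 for ric-4 to 0.07 for unc-64, and 0.02 for 3 germ cell markers, from 0.02 for pgl-1 to 0.28 for glh-1.

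Genes outside the group were ranked by how closely their levels across the 6 libraries resembled the median profile of the tested members. The members themselves were barred from this ranking. Likeness was measured as the root mean square difference of log2 CPM, centred on each gene's mean, over the 6 libraries, among 11090 other genes whose mean reached 5 CPM. The closest were irg-2, an infection response gene, with a difference of 0.0828, zip-10, a bZIP transcription factor gene, with 0.106, F44E5.4, of the HSP70 family, with 0.115, C49G7.10 with 0.122, and hsp-16.2, a small heat shock protein gene, with 0.126. The median over all candidates was 0.757. irg-2 held 30.5, 26.5 and 27.96 CPM in the mutant libraries and 9.06, 11.2 and 15.5 CPM in the wild-type libraries. Of the members themselves, nlp-34 lay at 0.209, nlp-31 at 0.2398 and nlp-28, the farthest but for the scarce cnc-2, at 0.815.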

How the data were processed

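The authors deposited 1 table of raw counts for 99774 features: 45836 genes, 53925 single repeat copies and 13 parts of a reporter construct. The submitters' processing notes list DESeq2 1.8.1, featureCounts 1.5.0 and TopHat2 2.1.0, with no options. Which genome build, annotation and strand setting were used is not given in the sources used here. Per the labels' protocols, 1 microgram of RNA had its ends prepared for adapter ligation, went into a small RNA kit and gave inserts of 18 to 36 bp. Whether reads of the members are ambiguous between paralogs was not tested.

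Groups and replicate numbers come from the sample titles. The labels call the 3 libraries of a group biological replicates, with no word on separate cultures, and p-values measure the spread between these libraries. Replicates differed by more than sampling noise. Library sizes were set by the gene rows that passed the filter on low counts, without repeat copies and construct parts. The filter by group (filterByExpr), TMM factors and a robust quasi-likelihood fit on group were run in edgeR 4.0.16 (R 4.3.3). The test was checked on simulated counts, with 50 genes changed at each fold. It recovered 0% of 1.5-fold, 46% of 2-fold and 94% of 4-fold and of 8-fold changes, and 11 of its 128 calls were false. A gene near 2-fold that missed the threshold is thus not shown to be unchanged. Alternatives were DESeq2 1.42.0, limma voom 3.58.1, a replicate block, each library left out, protein-coding genes alone, 3 scalings, 2 filters and a non-robust fit. 44336 gene rows matched the Ensembl release 115 WBcel235 annotation, which gave names, gene order, strand and lengths. Its coordinates are not printed, since the build of the counts is unknown.

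The members, the gene lists and the tests were chosen with earlier results of these data known. Genes were named by rule: the members, list genes past the threshold and those with the largest and smallest log2 fold change of a list, neighbours past the threshold or nearest to a cluster, and the 5 genes most like the median member profile. elt-5 had no row under that name and was not used. A planned measure of sequence shared between paralog transcripts was not run, as no transcript sequences were used here. Intervals of counts cover counting error only.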

Additional observations from a re-analysis of the deposited data

How the results depend on the processing

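nlp-34 and cnc-6 passed the threshold in all 17 alternatives, nlp-27 in 11 and cnc-2 in 9 of the 16 that tested it. The count of 4 members called became 2 under the replicate block, which lost nlp-27 and cnc-2 (edgeR adjusted p = 0.0618 and 0.0794). Calls were fewer over all genes in that fit, with 52 passing against 146 in the main fit. The count of members called became 7 by DESeq2, which added nlp-29, nlp-31 and cnc-4 against 3.32% of all genes called higher. It ranged from 2 to 4 over the fits that left out a library, where 36 to 116 genes passed in all against 146 with every library. The 2 related genes called became 5 with upper-quartile factors and with library size only, 6 with no expression filter and 8 by DESeq2. They became 6 when mutant library 1 and wild-type library 3 were both left out, and ranged from 0 to 3 with a library left out. In these 5 settings, in the order given, 203, 213, 306, 556 and 241 of all genes passed in either direction, against 146 in the main fit. With no filter 45 related genes were tested instead of 29, among 26737 genes. With no filter 6 of 10 members were called, and with a mean of at least 1 CPM cnc-2 was not tested and 3 were called. In that last fit 129 of 14437 genes passed. The cause was not tested. The p38, DBL-1, furrow collagen and osmotic response genes together, and the neighbour genes, had 0 called in all fits except DESeq2, with 1 each (vhp-1 and clp-4). The log2 fold change of nlp-28 ranged from -0.12 (mutant library 2 left out) through -0.10 (wild-type library 1 left out) to 0.46 (wild-type library 2 left out). The log2 difference of the summed counts ran from 0.72 to 0.98 for the nlp members and from 1.49 to 2.13 for the cnc members. The correlation over genes of the deviations of same-numbered libraries was -0.22, 0.50 and -0.31 for numbers 1, 2 and 3. Number 2 alone deviated together, so the numbers were not taken as pairs. Mutant library 1 and wild-type library 3 had 0.62.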
